A study of Nezara viridula with 24 samples.

Results

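Transcript levels in M1, the first section of the midgut, were compared between green bean and corn diets in adults of Nezara viridula, a plant-sucking bug known as the southern green stink bug. The comparison used 6 of the 24 libraries of the study, chosen by their labelled tissue and diet, with 3 libraries on each diet. Both groups shared everything else the labels give: the insects moulted to adults, were moved to fresh food of their own diet, fed for 24 h and were then dissected. Each library was made from polyadenylated RNA of M1 tissue pooled from 4 to 10 individuals, and the labels give no strain, sex or other treatment. The 12 libraries of midgut sections M2 and M3, 3 for each section and diet, entered the same fit and so share in its estimate of the spread, and the 6 of salivary glands were read apart. The design text calls the libraries of a group triplicates and does not say whether they came from separate rearings, so p-values measure the spread between these pools, which may be technical.

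Stink bugs pierce plant tissue, inject saliva and suck up the partly digested food. The midgut that receives it is divided into sections. The first is a wide sac in which the meal is held and water and sugars are taken up, and digestion by secreted enzymes continues along the following tubular sections. Green bean is a legume pod and corn a cereal grain, so the diets differ in their proteins, starch and defence compounds.

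The table holds 298322 transcripts of a Trinity assembly, which is a set of transcripts built from sequencing reads without a genome. They fall into 201329 Trinity genes, each the sum of the isoforms that share an identifier up to its last part. The file pairs none of them with a gene name, a protein or a genome position, and no annotation was used here, so genes appear under their assembly identifiers and no function, sequence or tissue marker could be looked up. Isoforms of a gene, and near-identical genes, can share reads, and how the quantifier divided shared reads is uncertain.

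Library totals in M1 ran from 17819164 to 28015333 counts. Levels are given as CPM, counts relative to a library total scaled by TMM (the trimmed mean of M-values), a factor that sets the bulk of genes equal between libraries. Some libraries stood apart from the rest of their group, and they touch the counts of called genes given after them. Green bean library 1 lay far from the other 5 on the first principal component of log2 CPM, which held 61.8% of the variance, at -282 against 34.4 to 94.2. In that library, 8773 genes had at least 10 counts while having at most 2 in each of the other 5 M1 libraries, and these genes made up 39.8% of the genes at 10 counts or more there. They held 2.33% of its counts (95% exact binomial interval 2.32 to 2.34, for counting error alone). The other 5 libraries had 4 to 229 such genes each. Of the 8773, 8709 also had at least 10 counts in the M3 library of green bean with the same replicate number, and at most 3736 did so in any other M2 or M3 library.

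The corn libraries also differed among themselves. Corn library 1 detected 94335 genes with at least 1 count, and corn libraries 2 and 3 detected 40890 and 44573, against 74366, 70645 and 64667 on green bean. The TMM factors of corn libraries 2 and 3, at 0.518 and 0.676, lay below those of the other 4 libraries, at 0.982 to 1.12. The smallest number of genes that held 50% of a library's counts was 114, 128 and 153 on green bean and 116, 45 and 55 on corn. Corn libraries 2 and 3 were therefore the narrow ones, while corn library 1 fell inside the green bean range. The diets differed by 59.7 such genes (132 ± 19.8 on green bean and 72 ± 38.4 on corn, SD, n = 3). This difference was larger than either SD, but the diets overlapped, with corn library 1 at 116 and green bean library 1 at 114. The two-sided exact permutation p was 0.2. The smallest p that 3 against 3 allows is 0.1, so this test cannot decide whether the diets differ. The number of genes detected gave an exact permutation p of 0.5 (69893 ± 4893 on green bean and 59933 ± 29850 on corn, SD, n = 3).

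Of 23008 genes with enough counts to be tested, 5 differed between the diets in M1, or 0.0217% of those tested. On green bean 2 of them rose (0.00869%) and 3 fell (0.013%). The most abundant of them averaged 571 CPM on corn and 30461 CPM on green bean. The call was an adjusted p under 0.05, from edgeR's quasi-likelihood test with the Benjamini-Hochberg adjustment over all genes tested. A log2 fold change above 0 means a higher level on green bean throughout. At an adjusted p under 0.10 there were 25 genes, or 0.109%, with 7 higher and 18 lower. The unadjusted p was under 0.05 for 2094 genes, or 9.1%. The highest adjusted p among the 5 was 0.0454 by edgeR, and the nearest gene outside had 0.0610 (log2 fold change 5.07, with a mean of 595 CPM on green bean and 17.8 on corn).

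**Figure D1:**
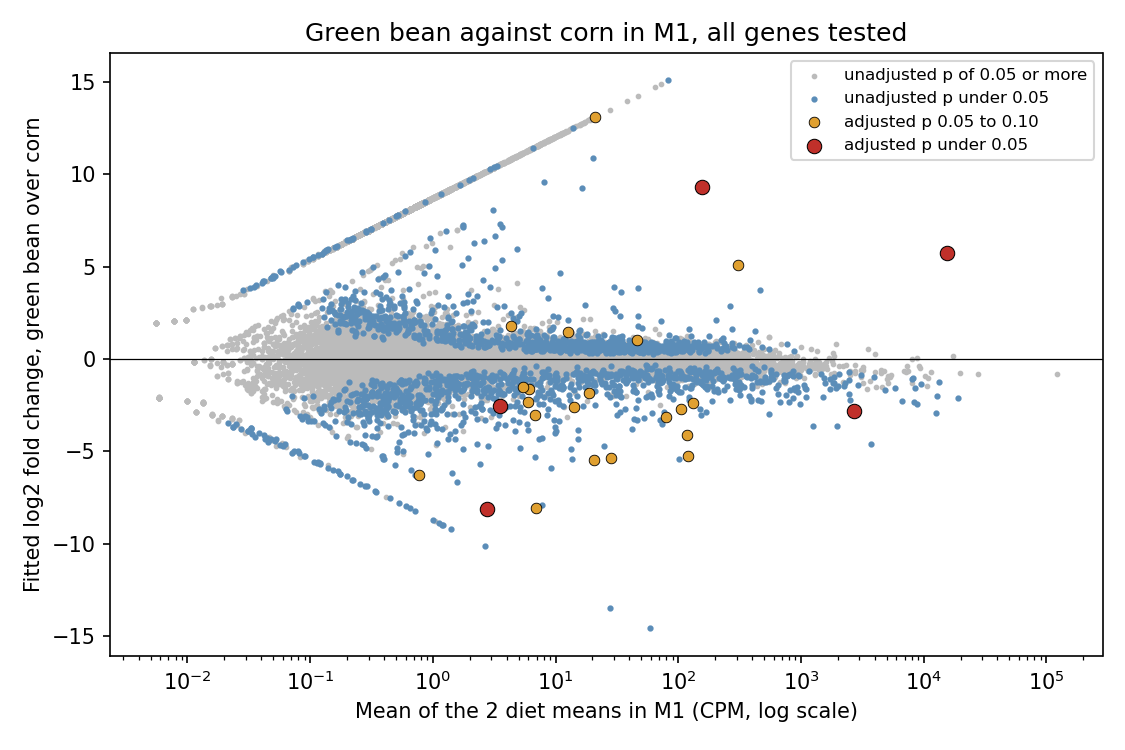
Fitted log2 fold change in M1 (green bean over corn, vertical axis) against the mean of both diet means (CPM, log scale) for the 23008 genes tested, 1 point per gene, coloured by p class. The 5 genes with an adjusted p under 0.05 lie at 5.74 and 9.33 above 0 and at -2.55, -2.84 and -8.16 below it; straight lines of points at the edges are genes with no count on one diet, whose fitted values depend on the prior count.

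How many genes passed depended strongly on which genes and libraries entered. Of the 8773 genes found almost only in green bean library 1, 2856 were tested, with no adjusted p below 0.399 by edgeR. All 2856 had a log2 fold change above 0, with a median of 7.78. The way these genes were picked leaves little room for another sign, so it is not read as a result. With those genes removed, a choice made after seeing the data, 42 genes passed, 11 higher and 31 lower, and the 5 were among them. With the M1 libraries fitted alone, none of 14093 genes passed by edgeR, 1322 having an unadjusted p under 0.05. DESeq2 called 1341 of 17803 genes, or 7.53%, with 782 higher and 559 lower. Scaling by relative log expression gave 4 higher and 19 lower, against 2 and 3 with TMM. Leaving out 1 M1 library at a time gave 0 to 24 genes, with 0 when green bean library 2 was absent, 1 without green bean library 3, corn library 2 or corn library 3, and 24 without corn library 1. The count was 5 without green bean library 1, of which 2 were shared with the full set.

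The highest of the genes that rose was TRINITY_DN1599_c0_g1, the called gene with the largest difference in mean CPM. Its levels were 48248, 32299 and 10837 CPM in the green bean libraries and 281, 602 and 830.15 CPM in the corn libraries. The groups did not overlap, which was a condition for naming a gene and held for 13.7% of all genes tested. The mean was 30461 ± 18773 CPM on green bean and 571 ± 276 on corn (SD, n = 3), a ratio of 53.3. The log2 fold change was 5.74 with a standard error of 0.86 (edgeR adjusted p = 0.0454). In terms of all counts of a library, the gene held 3.05% ± 1.77 on green bean and 0.0395% ± 0.0144 on corn. It was the gene of rank 2, 2 and 4 by abundance in the green bean libraries, and of rank 439, 370 and 218 in the corn libraries.

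The gene has 15 isoforms in the assembly, and 12 of them reached a mean of 1 CPM on either diet in M1. All 12 were higher in every green bean library than in every corn library, with ratios of the means from 8.12 to 406. Of the 12, 7 passed the isoform test at an edgeR adjusted p under 0.05, against 0.101% of all isoforms tested. The gene was itself picked for a call and for diets without overlap, so neither count is further support. The isoforms did not rise by the same factor. Isoform i5 of TRINITY_DN1599_c0_g1 held 54.8% ± 3.65 of the gene's counts on green bean and 16.0% ± 6.13 on corn. Isoform i11 went the other way, from 20% ± 2.55 on corn to 3.1% ± 0.258 on green bean. Isoform i17 held 15.9% ± 2.7 on green bean and 3.77% ± 1.78 on corn (SD, n = 3). For each of these shares the diets did not overlap, and the two-sided exact permutation p was 0.1, the smallest the design allows.

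**Figure D2:**
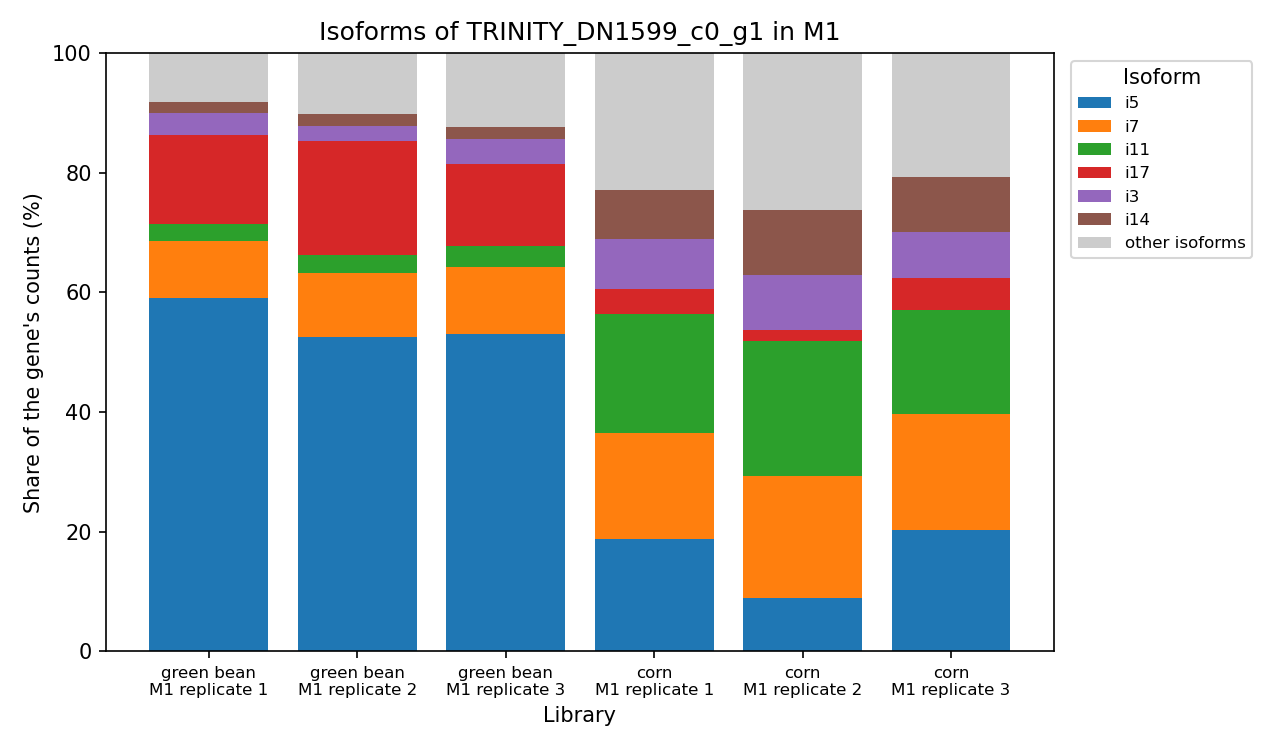
Share of the counts of TRINITY_DN1599_c0_g1 (percent, vertical axis) that each isoform held in each of the 6 M1 libraries, with 1 stacked bar per library and the isoforms outside the 6 largest in grey. Isoform i5 took 52.5 to 59.0% in the green bean libraries and 8.97 to 20.2% in the corn libraries.

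The gene with the largest fold among those that rose was TRINITY_DN37208_c0_g1, which has 1 isoform. It stood at 782, 130 and 32.2 CPM on green bean, from 13510, 2804 and 975 counts. On corn it stood at 0.176, 0.318 and 1.00 CPM, from 5, 4 and 17 counts. The 3 green bean levels spanned a wide range, yet the lowest lay well above the highest corn library. The ratio of the mean levels was 630.5 (315 ± 408 against 0.499 ± 0.442 CPM, SD, n = 3), and the log2 fold change was 9.33 with a standard error of 1.34 (edgeR adjusted p = 0.0454). By abundance the gene ranked 156, 1034 and 3183 in the green bean libraries and 24412, 14298 and 10125 in the corn libraries.

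Of the genes that fell, TRINITY_DN1825_c0_g1 had the largest difference in mean CPM. It was measured at 616, 643 and 737 CPM on green bean and at 3119, 6858 and 4337 on corn. The green bean values lay close together, and all of them were below the lowest corn library. The level was 7.17-fold higher on corn (665 ± 63.6 CPM on green bean and 4771 ± 1907 on corn, SD, n = 3), with a log2 fold change of -2.84 and a standard error of 0.40 (edgeR adjusted p = 0.0454). As a share of all counts of a library, the gene held 0.0684% ± 0.0103 on green bean and 0.331% ± 0.0337 on corn (SD, n = 3). The corn libraries thus lay closer together as shares than as TMM-scaled CPM. With library totals in place of TMM the log2 fold change was -2.27. Isoform i2 held 89.7 to 99.2% of the gene's counts in every library, so a single assembled isoform carried the gene on both diets. By rank the gene moved from 206, 218 and 166 on green bean to 38, 43 and 52 on corn.

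The largest fold among those that fell was that of TRINITY_DN8240_c0_g1, which was nearly absent on green bean. It had 1 count in green bean library 2 and 0 in green bean libraries 1 and 3, against 70, 105 and 99 counts in the corn libraries, or 2.47, 8.36 and 5.84 CPM. The ratio of summed counts, corn over green bean, was 328 on the CPM scale, with a 95% exact binomial interval from 58.3 to 12984 that covers counting error alone. The fitted log2 fold change was -8.16 with a standard error of 0.96 (edgeR adjusted p = 0.0132), and it depends on the prior count because of the near absence on green bean. The gene entered the naming rule only after its minimum of 10 CPM was dropped, since a single gene that fell had met it.

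The fifth called gene, TRINITY_DN682_c0_g1, fell outside the rule for named genes and is named after its values were seen, to complete the set. Its levels were low, at 0.753, 1.2 and 1.12 CPM on green bean and 4.58, 8.91 and 4.66 CPM on corn. The diets did not overlap (1.03 ± 0.240 and 6.05 ± 2.48 CPM, SD, n = 3), and the log2 fold change was -2.55 with a standard error of 0.38 (edgeR adjusted p = 0.0454). None of its 3 isoforms passed the isoform test, at edgeR adjusted p-values from 0.395 to 0.711.

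No call among the 5 held in every fit without 1 of the 6 M1 libraries. The direction held in all of them, but diets without overlap leave it little room to change, so it is not read as support. TRINITY_DN1599_c0_g1 lost its call without any single M1 library, at edgeR adjusted p-values from 0.0512 to 0.188. TRINITY_DN37208_c0_g1 lost it without green bean library 2 (0.0868) and without corn library 1 (0.0541), 2 (0.188) or 3 (0.155). TRINITY_DN8240_c0_g1 lost it without green bean library 2 (0.0868) or 3 (0.0512). TRINITY_DN1825_c0_g1 and TRINITY_DN682_c0_g1 kept it only where corn library 1 was the one left out, and their adjusted p-values otherwise lay between 0.0861 and 0.188 by edgeR.

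**Figure D3:**
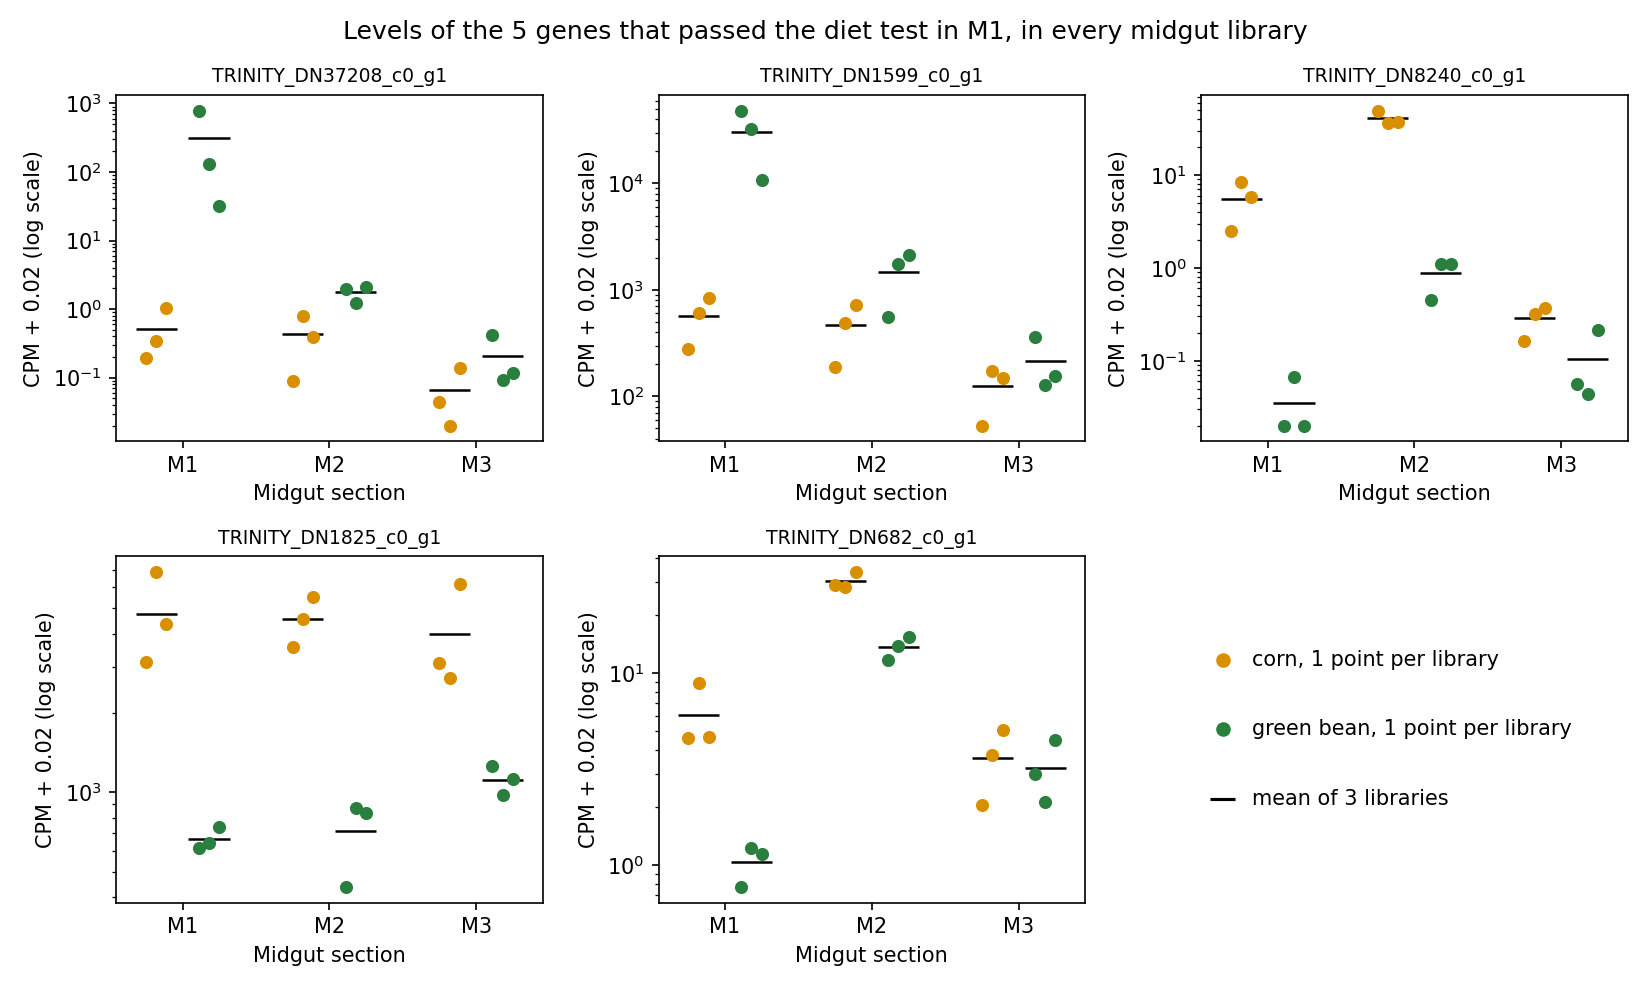
Levels of the 5 called genes in the 18 midgut libraries (CPM + 0.02, log scale, vertical axis) by midgut section, with 1 point per library in green for green bean and orange for corn, and bars at the means of 3 libraries. The diets do not overlap in M1 for any of the 5, as for 13.7% of all genes tested, and the naming rule asked for no overlap. TRINITY_DN1599_c0_g1 and TRINITY_DN37208_c0_g1 stand highest in M1 on green bean.

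The 5 genes were then followed into M2 and M3, which were sequenced as separate libraries. The labels do not say whether those sections came from the same insects as M1. All 5 kept the sign of their difference in both sections. TRINITY_DN1825_c0_g1 was also called lower in M2, with means of 715 ± 241 CPM on green bean and 4538 ± 962 CPM on corn (log2 fold change -2.67, edgeR adjusted p = 0.0114). In M3 it stood at 1117 ± 140 and 3992 ± 1895 CPM, without overlap but also without a call (log2 fold change -1.84, edgeR adjusted p = 0.258). TRINITY_DN8240_c0_g1 was called in M2 as well, where its level was higher than in M1 on both diets, with means of 0.863 ± 0.376 CPM on green bean and 40.8 ± 7.40 CPM on corn (log2 fold change -5.56, edgeR adjusted p = 0.00864). Over the whole table, 115 of 23008 genes were called in M2, or 0.5%. No gene was called in M3 by edgeR, or 0% of those tested, with 1815 at an unadjusted p under 0.05 and 891 called by DESeq2.

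Both genes that rose in M1 had far smaller values on green bean in the later sections. TRINITY_DN1599_c0_g1 averaged 1486 ± 832 CPM in green bean M2 and 470 ± 270 in corn M2, where the diets overlapped (log2 fold change 1.66, edgeR adjusted p = 0.233). In M3 it averaged 215 ± 128 and 124 ± 62.5 CPM (log2 fold change 0.79, edgeR adjusted p = 0.768). TRINITY_DN37208_c0_g1 averaged 1.74 ± 0.474 CPM in green bean M2 and 0.409 ± 0.357 in corn M2 (log2 fold change 2.15, edgeR adjusted p = 0.315). In M3 it was at 0.189 ± 0.181 and 0.0470 CPM, from 17 counts on green bean and 4 on corn. The fifth gene, TRINITY_DN682_c0_g1, gave 13.6 ± 1.84 against 30.3 ± 2.94 CPM in M2 (log2 fold change -1.15, edgeR adjusted p = 0.123) and 3.18 against 3.61 CPM in M3.

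Whether a diet effect in M1 differed from that further along the gut was tested as the M1 difference minus the mean of the M2 and M3 differences. The fit took libraries of different sections as independent, which the labels do not settle. Same-numbered libraries of a diet shared features across sections. Corn library 1 detected the most genes of its diet in each section, at 94335 in M1, 105966 in M2 and 122664 in M3. Of the 8773 genes of green bean M1 library 1, 8709 also had at least 10 counts in green bean M3 library 1. The fit did not model such links. No gene passed by edgeR, or 0% of 23008, with 723 at an unadjusted p under 0.05, and DESeq2 called 64 of 16964. The difference of log2 fold changes was 4.51 with a standard error of 0.92 for TRINITY_DN1599_c0_g1 and 7.29 with a standard error of 1.94 for TRINITY_DN37208_c0_g1. Their adjusted p-values were 0.881 and 1.00 by edgeR and 0.000225 and 0.00109 by DESeq2, so the call depends on the tool. Of the genes that fell, TRINITY_DN8240_c0_g1 had a difference of -4.57 with a standard error of 1.09, and TRINITY_DN682_c0_g1 one of -1.88 with a standard error of 0.45. Their adjusted p-values were both 1.00 by edgeR, and 0.0710 and 0.0102 by DESeq2, so the call of TRINITY_DN682_c0_g1 depends on the tool as well. For TRINITY_DN1825_c0_g1 the difference was -0.59 with a standard error of 0.46 (adjusted p = 1.00 by edgeR and by DESeq2).

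In the salivary glands, which stand in another table and were scaled apart, the levels of the 5 genes are a description. TRINITY_DN1599_c0_g1 was at 55.8, 16.9 and 34.5 CPM on green bean and 1.12, 1.68 and 4.35 CPM on corn, so it was higher on green bean there too, at levels far below those of M1. TRINITY_DN1825_c0_g1 was at 95.7, 1.96 and 92.2 CPM on green bean and 5.45, 12.3 and 27.4 on corn, with overlap. Its gland mean was higher on green bean (63.3 against 15.1 CPM), the reverse of the midgut. TRINITY_DN682_c0_g1 was at 1.47, 0.0872 and 0.0825 CPM on green bean and 0.0401, 0.198 and 0.109 CPM on corn, also with overlap. TRINITY_DN37208_c0_g1 and TRINITY_DN8240_c0_g1 had at most 2 counts in any gland library.

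The 25 genes with an adjusted p under 0.10 show the same layout on a wider base. The 7 higher genes had a median log2 fold change of 5.07 in M1, 1.66 in M2 and 0.92 in M3, and all 7 kept their sign. The 18 lower genes had medians of -2.94, -2.21 and -0.80, with the sign kept by 17 in M2 and 15 in M3. In M2, 8 of the 18 were called lower, against 74 of all 9512 tested genes that were lower in M1. Over all genes tested, 78.0% of those higher in M1 were also higher in M2 and 66.1% in M3, and of those lower in M1 the shares were 74.6% and 72.2%. The size of the difference was smaller in M3 than in M1 for all 25 and smaller in M2 for 22 of them. These genes were picked for a large difference in M1, so a smaller one elsewhere is not read as a result. Read from M2, 109 of the 115 genes called there had the same sign in M1, and 72 had an unadjusted p under 0.05 there, against 9.1% of all genes tested. Tests in M1 and M2 share 1 fit and its estimate of the spread of each gene. Neither these 72 nor the 8 called in M2 are therefore independent support. Corn libraries 2 and 3 stood apart in M2 as in M1, with 38270 and 39170 genes detected against 105966 in corn library 1, and TMM factors of 0.756 and 0.623 against 1.32. Their part in the signs shared between sections was not tested.

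**Figure D4:**
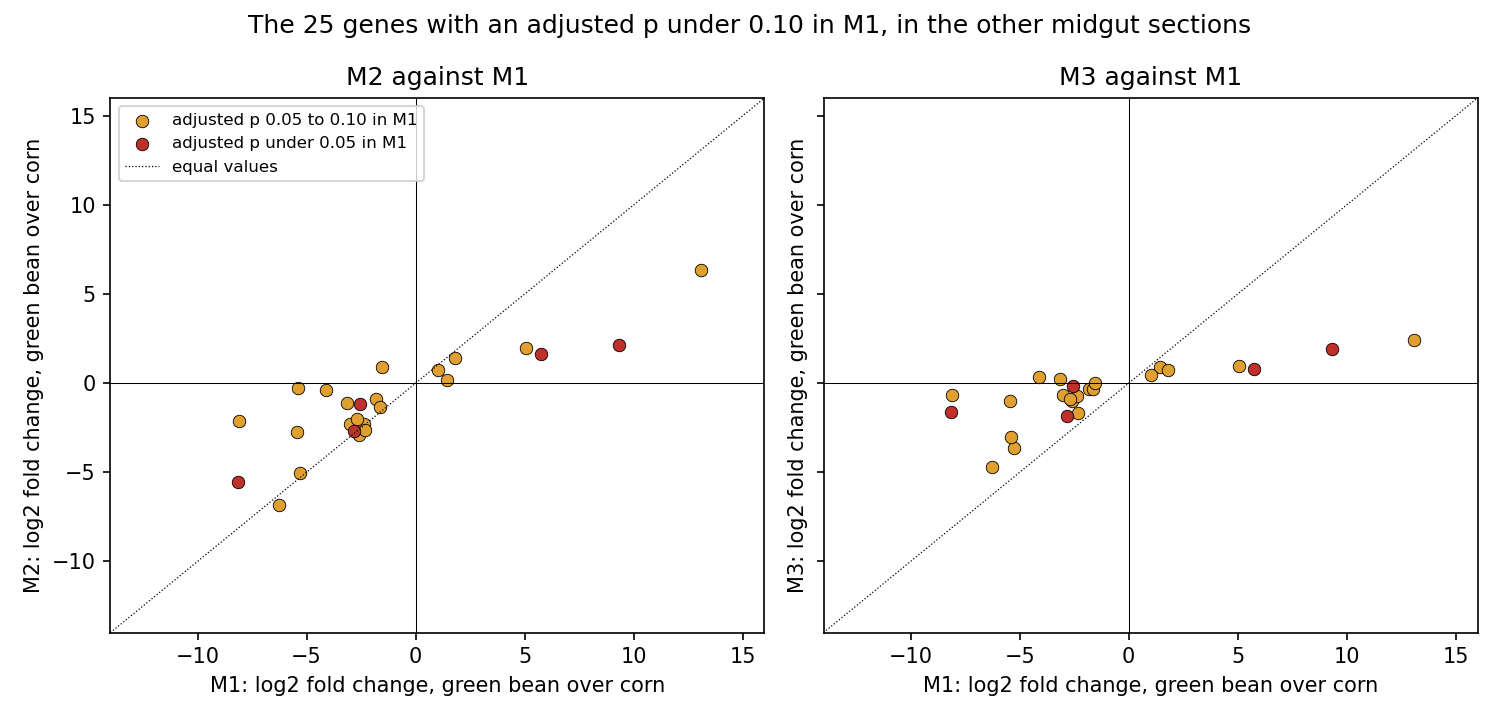
Log2 fold changes (green bean over corn) of the 25 genes with an adjusted p under 0.10 in M1, with M2 (left) and M3 (right) on the vertical axes and M1 on the horizontal axes, red for the 5 genes with an adjusted p under 0.05 and the dotted line marking equal values. All 7 genes above 0 in M1 stay above 0 in both sections, and of the 18 below 0 in M1, 17 stay below in M2 and 15 in M3.

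Away from the called genes, the balance of higher and lower genes changed with the level. The median log2 fold change was 0.34 among genes with a mean under 1 CPM, 0.18 from 1 to 10, 0.07 from 10 to 100 and -0.28 at 100 CPM or more. Over all genes tested it was 0.16 with TMM, 0.08 with relative log expression and 0.52 with library totals alone, so small differences depend on the scaling. The fold changes of the 5 genes are far larger, but they moved with the scaling too. With library totals, TRINITY_DN682_c0_g1 had a log2 fold change of -2.00, against -2.55 with TMM, and lost its call (edgeR adjusted p = 0.0594). The other 4 kept theirs. With the genes found almost only in green bean library 1 removed, the median over all genes tested was 0.00. The spread also differed by diet: genes from 10 to 100 CPM had a median SD of 0.22 log2 units on green bean and 0.39 on corn, and the SD was larger on corn for 61.2% of all genes. The median log2 fold change was 0.07 without corn libraries 2 and 3 of every section and 0.37 without corn library 1 of every section.

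In 3156 genes, or 13.7% of those tested, no green bean library overlapped a corn library, with 1840 higher (8%) and 1316 lower (5.72%). The genes with an unadjusted p under 0.05 comprised 1055 that were higher and 1039 that were lower on green bean. The higher ones held 9.34, 7.25 and 5.70% of the counts of the green bean libraries and 3.14, 1.10 and 1.73% of the corn libraries. The lower ones held 13.0, 12.5 and 12.9% on green bean and 21.1, 28.5 and 26.9% on corn. These genes were picked by the same comparison, so the shares are a description, and corn library 1 was the corn library nearest to green bean in both.

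The most abundant gene of M1, TRINITY_DN223_c10_g2, ranked 1 in all 6 libraries. It was at 96159, 84612 and 87273 CPM on green bean and 82963, 234880 and 152980 CPM on corn. The corn libraries bracketed the green bean ones, and the log2 fold change of -0.81 did not pass (edgeR adjusted p = 0.437). As a share of all counts it was 9.15% ± 0.415 on green bean and 10.6% ± 1.48 on corn (SD, n = 3), so the corn libraries lay closer together as shares of the library total than as TMM-scaled CPM.

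At the level of isoforms, 46 of 45390 tested in M1 were called by edgeR, or 0.101%, with 23 higher and 23 lower on green bean. They lay in 33 genes. Of these isoforms, 10 belonged to 4 of the called genes and 11 to 6 genes with an adjusted p from 0.05 to 0.10. In 16 genes whose own unadjusted p was 0.05 or more, 17 isoforms were called, and 15 of these had no count in any library of the lower diet. For those 17, the median size of the log2 fold change was 9.21 for the isoform, a value that depends on the prior count, and 0.41 for the gene. The remaining 8 lay in 7 genes with an unadjusted p under 0.05 alone. Of all 46 called isoforms, 18 had no count in any library of the lower diet.

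A case on green bean is isoform i3 of TRINITY_DN870_c0_g1, chosen after its values were seen. The isoform was at 48, 86.9 and 45.8 CPM on green bean and at 0 in all 3 corn libraries. The other isoforms of the gene summed to 199, 155 and 159 CPM on green bean and 160, 199 and 215 CPM on corn, so they overlapped. A case on corn, also chosen after the fact, is isoform i3 of TRINITY_DN1587_c2_g1, with no count on green bean and 1.45, 3.10 and 6.02 CPM on corn. Its other isoforms summed to 55.6, 11.2 and 22.7 CPM on green bean and 31.7, 2.95 and 8.91 CPM on corn, which also overlapped. In both genes, the diets thus overlapped in the rest of the gene and did not overlap in this isoform.

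**Figure D5:**
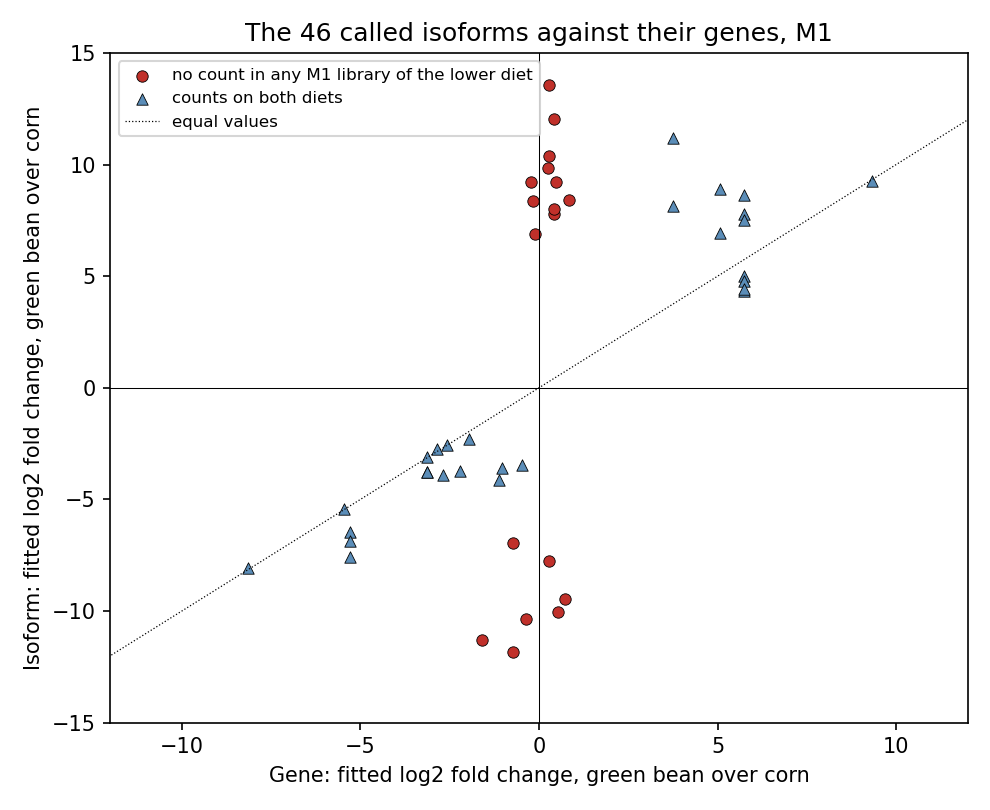
Fitted log2 fold change (green bean over corn in M1) of the 46 called isoforms on the vertical axis against that of their genes on the horizontal axis, with red circles for the 18 isoforms that had no count in any M1 library of the lower diet and blue triangles for the rest. The red circles lie above and below 0 on the vertical axis at gene values from -1.59 to 0.83, and their fitted sizes depend on the prior count.

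Genes found on a single diet were few. With at least 5 counts in all 3 libraries of one diet and no count in the other, 11 genes were found on green bean alone and 12 on corn alone, of 14964 and 12045 genes that reached 5 counts in all libraries of the diet. At 10 counts there were 4 and 3. The test covered 10 of the 11 and 7 of the 12, and none passed, with lowest edgeR adjusted p-values of 0.0866 and 0.135. Their levels were low, with medians of 0.876 CPM on green bean and 1.06 CPM on corn. Of the 11 green bean genes, 4 rested on green bean library 1, with 92.4 to 496 CPM there and 0.165 to 1.16 CPM in green bean libraries 2 and 3. The same 4 stood at 1047 to 4525 CPM in the green bean M3 library with that replicate number. On corn, the gene of highest mean reached 36.5, 191 and 125 CPM. In M2, 8 of the 11 green bean genes were again without a count on corn while present on green bean, and in M3 5 were, and the 4 genes that rested on library 1 are among both the 8 and the 5. Of the 12 corn genes, 5 were again without a count on green bean in M2 and 1 in M3. Isoforms showed the pattern more often, with 234 of 45390 on green bean alone and 141 on corn alone at the same minimum of 5 counts, against 10 and 7 of the 23008 genes tested.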

How the data were processed

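Estimated counts per transcript, as whole numbers, were deposited by the authors for 18 midgut libraries, with the gland libraries in a table of their own. The tools in the submitters' processing notes are Salmon 0.12, Trim Galore 0.4.4 and DESeq2 1.20.0; neither their roles nor how the counts became whole numbers is stated. Another table, which repeats the corn libraries, was not used. Every column was matched to a labelled library.

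Isoforms were summed to Trinity genes. Genes were kept by filterByExpr over the 6 midgut groups, and these held 98.7 to 99.8% of the M1 counts. In R 4.3.3 with edgeR 4.0.16, all 18 midgut libraries entered a model of 6 group means with TMM scaling and robust, trended quasi-likelihood dispersions (glmQLFit). Contrasts were tested two-sided with glmQLFTest and adjusted by Benjamini-Hochberg over all genes tested. Sharing the spread over 6 groups was chosen because 3 libraries a group tell little about it. A standard error is the size of a log2 fold change over the square root of its F statistic. DESeq2 1.42.0 was the alternative tool. Exact permutation tests compared single values of the 6 M1 libraries. The fit was also run on simulated counts. Those counts held no differences between sections, no linked libraries and no outlying library, so that run cannot tell how these affect the calls. At these totals, 3 counts correspond to well under 1 CPM, and the chi-square per degree of freedom between M1 replicates was 107 to 251, so no library looked like a duplicate.

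Named genes were those with an adjusted p under 0.05, a log2 fold change of at least 1 in size, no overlap and at least 10 CPM in the higher diet; in each direction the largest fold and the largest difference in mean CPM were taken, and the CPM minimum was dropped where fewer than 2 remained. The most abundant gene was added. The comparison, rule and tests were chosen with earlier results of these data known.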

Additional observations from a re-analysis of the deposited data

Results flagged for a closer look

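The diet effect in M1 differed from the mean of the diet effects in M2 and M3 for 4 of 45390 isoforms tested by edgeR (adjusted p under 0.05). None of the 23008 genes passed that test, and 723 had an unadjusted p under 0.05. Isoform i1 of TRINITY_DN6362_c0_g1 averaged 1.66 CPM on green bean in M1 and had no count on corn there, and it averaged 15.8 and 11.7 CPM in M2 and 6.82 and 4.50 CPM in M3 (edgeR adjusted p = 0.00194). Isoform i2 of TRINITY_DN82_c8_g1 averaged 1.28 CPM on green bean in M1 and 0 on corn, and 0.930 to 4.91 CPM in the other groups (edgeR adjusted p = 0.0407). Isoform i5 of TRINITY_DN15222_c0_g1 had no count on green bean in M1 against 5.27 CPM on corn, and lay between 4.03 and 5.88 CPM in the other 4 groups (edgeR adjusted p = 0.00194). Isoform i3 of TRINITY_DN1587_c2_g1 had no count on green bean in M1 against 3.52 CPM on corn, and 2.89 to 8.44 CPM elsewhere (edgeR adjusted p = 0.0227). All 4 were thus missing in M1 on a single diet and present on both diets in M2 and M3, at group means of at most 15.8 CPM. Their genes were not missing there, with means of 1.17, 18.4, 29.0 and 29.8 CPM in M1 on the diet without the isoform. The fitted differences depend on the prior count, and how reads were divided between isoforms was not tested.

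DESeq2 called 64 genes in the same comparison of sections, of the 16964 genes to which it gave an adjusted p. In 18 the M1 log2 fold change lay above the mean of those in M2 and M3, and in 46 it lay below. A value below that mean can be a larger fall on green bean in M1, as for TRINITY_DN682_c0_g1 (edgeR log2 fold changes of -2.55, -1.15 and -0.18 in M1, M2 and M3).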

How the results depend on the processing

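Over 18 other settings, the direction of each of the 5 called genes held in all 18, which diets without overlap in M1 leave little room to change. The call held in 14 for TRINITY_DN8240_c0_g1, 12 for TRINITY_DN37208_c0_g1, 11 for TRINITY_DN1825_c0_g1 and 9 for both TRINITY_DN1599_c0_g1 and TRINITY_DN682_c0_g1. The count of 5 genes became 43 with a replicate block, 0 with the M1 libraries alone, 1341 with DESeq2, 23 with relative log expression, 2671 without a filter on low counts, 60 with at least 1 CPM in 3 libraries, 0 without corn libraries 2 and 3 of every section, 1547 without corn library 1 of every section, 3669 with the number of genes detected as a covariate and 3 without robust dispersions. Settings added after seeing the data gave 12 with library totals in place of TMM, 42 without the genes found almost only in green bean library 1, and 25 at an adjusted p under 0.10. Leaving out 1 M1 library gave 0 to 24 genes. Same-numbered green bean and corn libraries of M1 did not deviate together (correlations of -0.0762, -0.00303 and 0.0105), so the block is not taken as a pairing of the diets. It called 43 genes, including the 5. Links between sections of a diet were not tested, although 8709 of the 8773 genes of green bean M1 library 1 recurred in green bean M3 library 1. The comparison of sections, 0 genes by edgeR, gave 64 with DESeq2 and 61 without a filter. The 46 isoforms became 1 with M1 alone, 1954 with DESeq2, 882 without a filter and 17 to 98 with 1 library left out; without corn libraries 2 and 3 of every section there were again 46, of which 43 were higher. The causes of these changes were not tested, except that fewer libraries or other genes entered by construction. The differences in genes detected and in genes holding 50% of the counts kept their direction, from 439 to 27161 and from 46.2 to 81.7 with 1 library left out.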
